A study of Caenorhabditis elegans with 6 samples.

Results

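The results concern BAG neurons of the pmk-3 mutant set against wild-type BAG neurons of the nematode Caenorhabditis elegans. Each gene with a normalized read count of at least 10 in at least 2 of the 4 BAG libraries was included, which gave 13035 of the 47063 genes in the table. Of these, 357 passed only through the 2 mutant libraries and 318 only through the 2 wild-type BAG libraries. The mutant cells came from strain FQ705, which carries pmk-3(wz31) and the reporter wzIs113[Pgcy-9::GFP]. The wild-type BAG cells came from strain FQ424, which carries the same reporter and no other listed change. Non-fluorescent cells of FQ424 (non-BAG) made up the remaining group, and non-fluorescent cells of the mutant were not analysed here. Each group had 2 libraries. The labels do not say what wz31 changes in the gene. Each genotype came from a single strain. Effects of wz31 and of any other difference between the strains therefore cannot be told apart.

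In both strains embryos were dissociated, the cells were cultured overnight, and live fluorescent cells were sorted about a day after dissociation. The promoter of gcy-9, a gene for a receptor guanylyl cyclase, drove the green fluorescent protein, and the labels call this marker independent of pmk-3. RNA of the sorted cells was amplified before sequencing. The labels call the libraries biological replicates without saying that they came from separate cultures, so a p-value here rests on how far these libraries lie apart, and that distance may be technical. In material sorted in bulk, fewer cells of a type and less RNA per cell cannot be told apart.

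PMK-3 is a p38 mitogen-activated protein kinase, the last member of a cascade in which a MAP kinase kinase kinase such as DLK-1 activates a MAP kinase kinase such as MKK-4, which activates the p38 kinase. In C. elegans neurons this cascade is known for its part in synapse formation and axon regrowth, and the kinase SEK-3 acts with DLK-1 and PMK-3 in a response to mitochondrial stress that is followed by reporters of the tubulin gene tbb-6. BAG neurons are a pair of sensory neurons in the head that detect carbon dioxide through GCY-9 and falling oxygen through the soluble cyclases GCY-31 and GCY-33, and that release glutamate and neuropeptides.

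The BAG libraries held 6402074 and 6456296 reads (mutant) and 7592477 and 8596169 reads (wild type). Ribosomal RNA took 14.1% and 14.3% of the mutant reads against 11.5% and 10.4% of the wild-type reads, and mitochondrial genes 0.56% and 0.544% against 0.338% and 0.755%. Mutant replicates lay closer together than wild-type BAG replicates: 1711 genes (13.1%) differed by at least 1 log2 unit between the mutant libraries and 2549 (19.6%) between the wild-type BAG libraries. The chi-square per degree of freedom between replicates was 11 for the mutant, 34.2 for wild-type BAG and 54.2 for non-BAG cells. Sampling noise alone gives 1.

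The sorted cells carried the marks of BAG neurons in all 4 libraries. The reporter's own gene, gcy-9, stood at 35897 and 45158 in mutant BAG libraries, against 32105 and 38516 in wild-type BAG libraries and 259 and 280.2 in non-BAG libraries. The oxygen sensing cyclase gene gcy-31 stood at 6476 and 6772 in the mutant, against 6809 and 5656 in wild-type BAG and 123.5 and 83.7 in non-BAG cells. Both were therefore present in either genotype at levels far above those of non-BAG cells, with overlapping values in mutant and wild-type BAG. All levels here are the authors' normalized read counts, and changes are log2 differences of the value plus 1, mutant minus wild-type BAG, with their standard error. The test was limma over the 6 libraries, with Benjamini-Hochberg adjustment over the 13035 genes and a threshold of adjusted p under 0.05. The median change of all genes tested was 0.0482.

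The transcript of pmk-3 was lower in the mutant without being lost. It stood at 259.8 and 284 in mutant BAG libraries, against 671 and 585 in wild-type BAG libraries and 404 and 553 in non-BAG libraries. Both mutant values lay under all 4 wild-type values. The change of -1.202 ± 0.27 missed the threshold (limma adjusted p = 0.0718). With DESeq2 on the recovered reads it passed, at -1.185 (adjusted p = 0.0166), and with limma on the 4 BAG libraries alone it passed as well (adjusted p = 0.0298). Over 17 alternatives the adjusted p from limma, edgeR or DESeq2 ran between 0.0166 and 0.463. The genes that share an operon with pmk-3, pmk-1 and pmk-2, which encode the other p38 kinases, stood at -0.59 ± 0.30 and -0.38 ± 0.28, and neither passed (limma adjusted p = 0.365 and 0.545). Their mutant libraries lay below both wild-type BAG libraries as well.

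**Figure D1:**
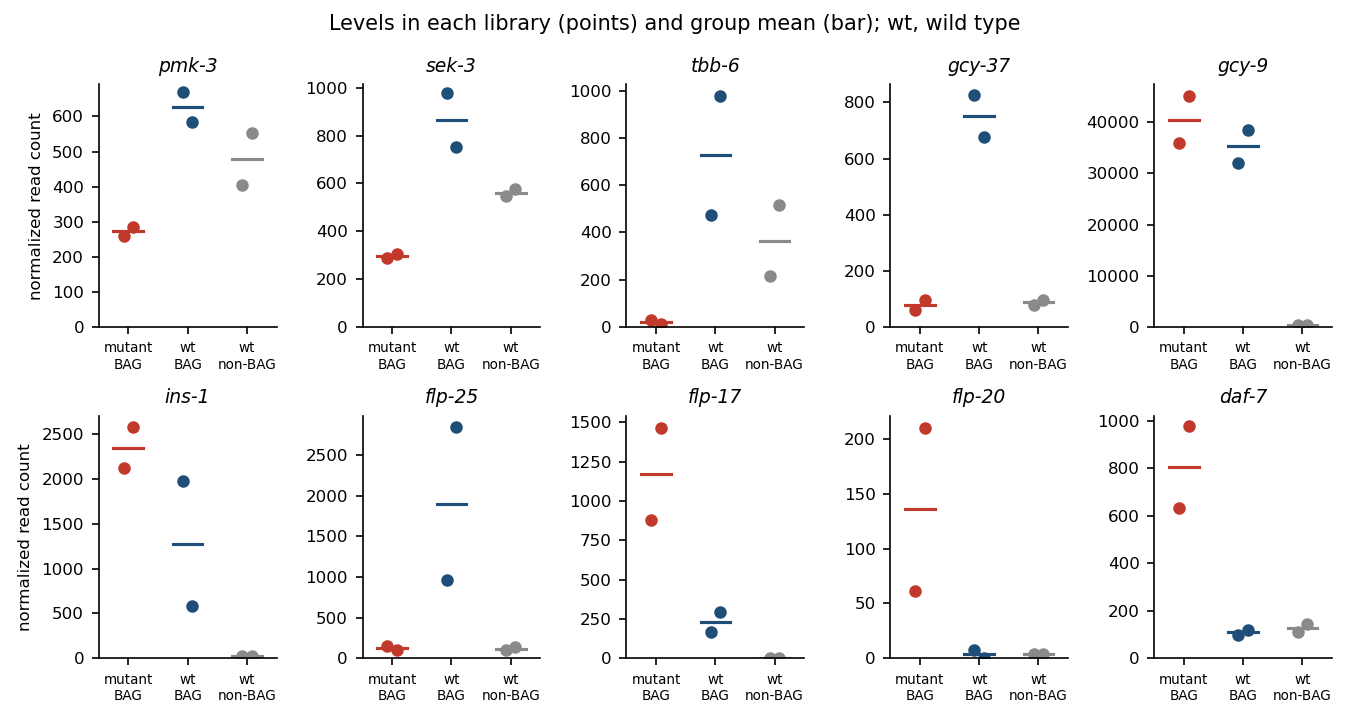
Normalized read counts of 10 genes in mutant BAG (red), wild-type BAG (blue) and wild-type non-BAG (grey) cells, with a point per library and a bar at the mean of 2. The axes start at 0. Mutant libraries lie below both wild-type BAG libraries for pmk-3, sek-3, tbb-6, gcy-37 and flp-25, overlap with them for gcy-9, and lie above them for ins-1, flp-17, flp-20 and daf-7.

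In mutant BAG neurons 132 of 13035 genes (1.01%) differed from wild-type BAG neurons: 78 rose (0.598%) and 54 fell (0.414%). The median change was 2.59 among those that rose and -2.84 among those that fell, and the smallest in size was 1.34. The rises held many secreted peptides and genes of their processing, and the falls held tbb-6, the p38 pathway kinase gene sek-3, the cyclase gene gcy-37 and a group of genes with no detected or almost no mutant reads. In all, 126 of the 132 were protein-coding, and 96 belonged to none of the 54 gene lists examined. The mutant libraries did not overlap the wild-type BAG libraries for any of the 132. Over all genes tested, both mutant libraries lay above both wild-type BAG libraries for 27.4% and below them for 24.3%. With 2 libraries a group a call all but requires such a separation, so these shares are not a like comparison.

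The number of calls moved when a library was left out. Without mutant replicate 1, mutant replicate 2, wild-type BAG replicate 1 or wild-type BAG replicate 2, limma called 0, 2, 11 and 0 genes, while 1392, 1158, 2080 and 1429 genes had an unadjusted p under 0.05. Without non-BAG replicate 1 or 2 it called 464 and 485. The fold of 7 of the 132 moved by over 1.5 times without mutant replicate 1 and of 7 without mutant replicate 2, and that of 9 without wild-type BAG replicate 1 and of 9 without replicate 2. The farthest was B0205.13 on leaving out a mutant library, at -3.80 without replicate 1 and -7.03 without replicate 2, and flp-20 on leaving out a wild-type BAG library, at 6.84 without replicate 1 and 3.79 without replicate 2. Leaving out 1 library cannot turn the direction of genes whose groups do not overlap. By DESeq2 704 genes passed and by edgeR 208 (153 higher, 55 lower), and 130 of the 132 passed in both.

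**Figure D2:**
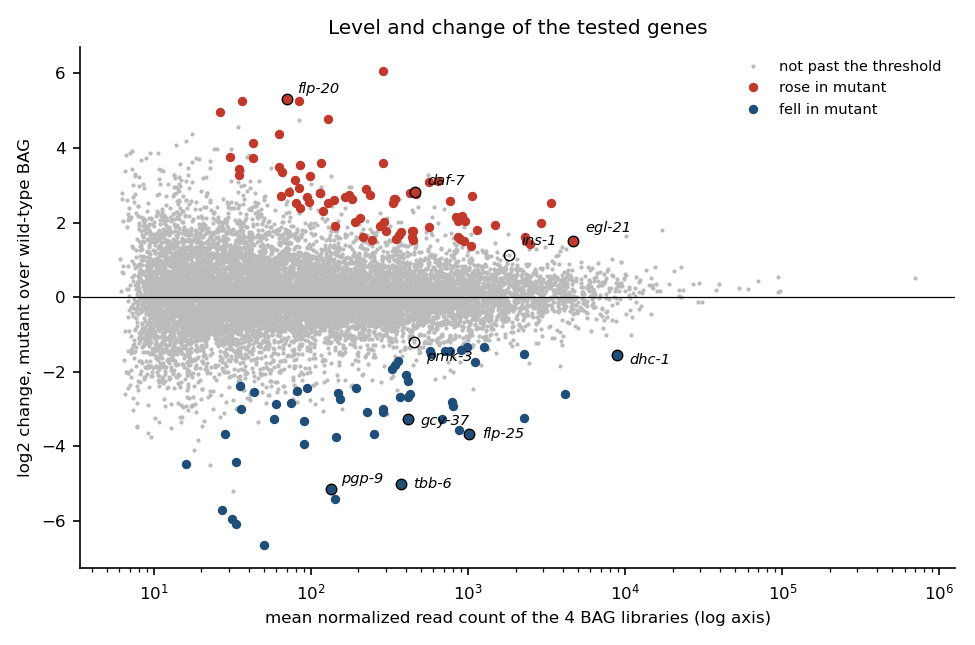
Log2 change of mutant over wild-type BAG for each of 13035 genes against the mean normalized read count of the 4 BAG libraries on a log axis. The 78 genes that rose are red, the 54 that fell blue, the rest grey, and circles mark named genes. The 132 genes past the threshold begin at a size of 1.34, and ins-1 and pmk-3 lie among genes that did not pass.

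The 2 wild-type BAG libraries did not give the same answer for every gene. Set against wild-type BAG replicate 1 alone, the mutant mean differed by at least 1 log2 unit for 2825 genes, and against replicate 2 alone for 3567. For 1606 genes it did so against both, in the same direction. Each of the 132 called genes was among them, so each differed from either wild-type library by at least 1 log2 unit. Genes past the threshold were selected for large and even differences, so this adds no separate support.

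The genes that set the wild-type libraries apart were chosen for that difference and are given as values with no test. C25F9.2 stood at 111 and 207 in the mutant, against 57.6 in wild-type BAG replicate 1 and 1881 in replicate 2. The pharyngeal muscle myosin gene myo-2 stood at 347 and 407 in the mutant, against 53 and 542 in wild-type BAG. On the side of wild-type replicate 1, phat-5 stood at 713 and 1056 in the mutant, against 440.4 and 17.2 in wild-type BAG. Mutant values for C25F9.2 and myo-2 lay between the wild-type BAG libraries, and those of phat-5 above both.

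Others that were lower in wild-type BAG replicate 2 than in replicate 1 were ceh-45, ZC84.6, arrd-16, ZC84.1, H40L08.3, F44F1.6 and ugt-57. Higher in replicate 2 were sri-43, cyp-35A4, fbxa-84, ztf-14, C25F9.11 and rhy-1, the last of which encodes a regulator of the hypoxia factor HIF-1. The pharynx factor gene pha-4 stood at 4525 and 4485 in the mutant, against 5023 and 1174 in wild-type BAG. Its non-BAG libraries stood at 4090 and 1115, with replicate 2 low there too. Lists moved between the wild-type libraries as well: cilia and intraflagellar transport genes had a median difference of -0.70 (replicate 2 minus replicate 1), so their median change in the mutant was -0.19 against replicate 1 and 0.60 against replicate 2. None of the 62 tested cilia genes passed.

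**Figure D3:**
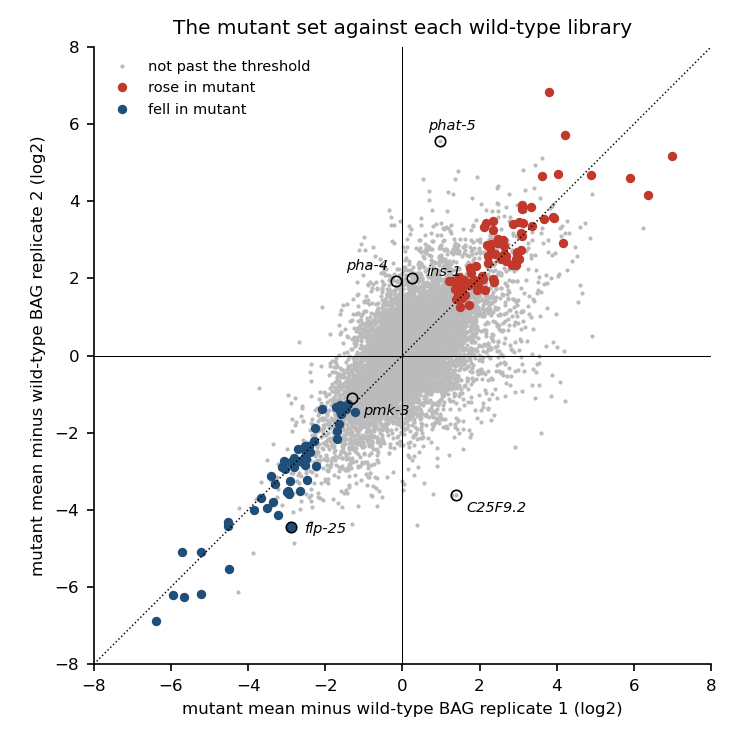
The mutant mean minus wild-type BAG replicate 1 (horizontal) and minus wild-type BAG replicate 2 (vertical), in log2 units, for 13035 genes. Genes that rose are red and genes that fell blue, and the dotted line marks equal values. Called genes lie at least 1 unit from 0 on both axes and on the same side of 0, while ins-1, pha-4, phat-5 and C25F9.2 lie far from the line.

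The insulin-like peptide gene ins-1 is one for which the wild-type libraries lay far apart. Insulin-like peptides are secreted ligands of the receptor DAF-2, and the series title concerns an insulin signal made by a sensory neuron. The level of ins-1 was 2121 and 2571 in mutant BAG libraries, against 1972 and 579.6 in wild-type BAG libraries and 26 and 25.4 in non-BAG libraries. Both mutant libraries lay above both wild-type BAG libraries, but only narrowly above replicate 1. The change of 1.13 ± 0.48 missed the threshold (limma adjusted p = 0.278). Without wild-type BAG replicate 1 it was 2.01 (limma adjusted p = 0.0906), and without wild-type BAG replicate 2 it was 0.24 (limma adjusted p = 0.863). Over 17 alternatives it passed in 0, with an adjusted p between 0.0906 and 0.863.

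Other insulin-like peptide genes were low in wild-type BAG neurons. The list held 40 genes, of which 18 were tested, 6 of them only through the mutant libraries and 1 only through the wild type. The single one that rose was ins-30, at 81.9 and 148.3 in the mutant against 11.9 and 6.46 in wild-type BAG, a change of 3.505 ± 0.55 (limma adjusted p = 0.0292). Its non-BAG values were 13 and 14.3, so both mutant values lay above all 4 wild-type values. Genes for ins-14 (29.1 and 39.1 in the mutant, 1.83 and 0 in wild-type BAG) and daf-28 (102.4 and 133.4 in the mutant, 28.3 and 13.6 in wild-type BAG), named after their values were seen, did not pass (limma adjusted p = 0.052 and 0.068). Of the insulin receptor pathway, 14 of 15 genes were tested and none passed, with a median of 0.30. The receptor gene daf-2 stood at 0.79 ± 0.27 and the 14-3-3 gene ftt-2 at 0.36 ± 0.40 (limma adjusted p = 0.182 and 0.695).

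Neuropeptide genes were numerous among the rises. Neuropeptides are cut from precursor proteins in dense-core vesicles by the convertase EGL-3 and the carboxypeptidase EGL-21, and their ends are then amidated. The FMRFamide-like (flp), NLP and insulin-like lists together held 147 genes, of which 105 were tested, 11 of them only through the mutant libraries. Of these 13 rose and 1 fell, which was 16.7% of all rises. Both mutant libraries lay above both wild-type BAG libraries for 84 of the 105 (80%) and below them for 3 (2.86%), where the shares over all genes were 27.4% and 24.3%. Without the 12 members tested through 1 genotype only, 73 of 93 (78.5%) lay above and 2 below, against 26% and 23% of all genes taken the same way, and 12 rose. Over all 144 members with a read, 98 lay above and 7 below. The median change was 1.46, and 1.37 without those 12, against 0.0482 for all genes. At least 1 log2 unit lay between the mutant mean and wild-type BAG replicate 1 for 67 of them, replicate 2 for 75, and both for 57. The summed value of all 147 was 44138 and 60525 in the mutant, against 21981 and 19120 in wild-type BAG and 4079 and 3859 in non-BAG cells.

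Among flp genes, 30 of 31 were tested and 5 rose, where the share over all genes was 0.598%. The largest rise was that of flp-20, at 61.4 and 210.4 in the mutant against 7.31 and 0 in wild-type BAG, a change of 5.32 ± 1.01 (limma adjusted p = 0.0484). It was the single flp gene tested only through the mutant libraries, the group where it is high. The mutant values of flp-20 differ widely, but both lie above the 4.33 and 4.34 of the non-BAG libraries too. Next came flp-6, at 557 and 946 in the mutant against 91.4 and 117.1 in wild-type BAG, a change of 2.80 ± 0.42 (limma adjusted p = 0.0275). Another, flp-14, stood at 226.4 and 172.5 in the mutant against 42 and 36.6 in wild-type BAG, a change of 2.303 ± 0.41 (limma adjusted p = 0.0406).

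The other rises, flp-10 and flp-19, are peptide genes of BAG neurons themselves. In the mutant flp-10 stood at 1129.7 and 1862 against 283.2 and 366 in wild-type BAG, a change of 2.17 ± 0.33 (limma adjusted p = 0.0275). Values of flp-19 were 438 and 497 in the mutant against 110.5 and 117.1 in wild-type BAG, a change of 2.03 ± 0.32 (limma adjusted p = 0.0292). Because flp-19 shares exon sequence with abl-1, a more abundant gene that runs the opposite way, and strand use in counting is not stated, its level is uncertain. The BAG peptide gene flp-17 stood at 882 and 1466 in the mutant against 167.2 and 291.6 in wild-type BAG, and did not pass at 2.36 ± 0.47 (limma adjusted p = 0.0571). The median over the 30 flp genes was 1.73, which was 1.37 against wild-type BAG replicate 1 and 1.85 against replicate 2.

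One flp gene went the other way. The level of flp-25 was 155.2 and 106.9 in the mutant, against 958 and 2841 in wild-type BAG, a change of -3.67 ± 0.47 (limma adjusted p = 0.0122). Its non-BAG libraries stood at 100.7 and 136.4, so the mutant values overlapped those of non-BAG cells. The wild-type BAG libraries differ widely here, yet both stand well above the mutant. It was the single flp gene for which both mutant libraries lay below both wild-type BAG libraries, while 26 of the 30 lay above. The shares over all genes were 24.3% below and 27.4% above.

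Of the NLP genes, which encode other neuropeptides, 57 of 76 were tested, 4 of them only through the mutant libraries. Of these, 7 rose and none fell, where 0.598% of all genes rose and 0.414% fell, and the median was 1.396. Both mutant libraries lay above both wild-type BAG libraries for 47 of the 57 and below for 0, against 27.4% and 24.3% of all genes. Over all 76 members with a read, 55 lay above and 1 below. One was F02D8.5 (now nlp-59), at 4654 and 6865 in the mutant against 1172 and 824 in wild-type BAG, a change of 2.52 ± 0.30 (limma adjusted p = 0.00993). The level of nlp-18 was 1282 and 2436 in the mutant against 228.4 and 311.7 in wild-type BAG, a change of 2.72 ± 0.36 (limma adjusted p = 0.0129). For nlp-3 it was 1181 and 1924 in the mutant against 350.8 and 382.1 in wild-type BAG, a change of 2.04 ± 0.33 (limma adjusted p = 0.0292). The remaining 4 were nlp-11, nlp-15, nlp-17 and T04C12.3 (now nlp-80), with changes between 1.68 and 2.52. The level of nlp-17 is uncertain, since seld-1 on the opposite strand covers part of its exons.

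Genes that process and package peptides rose in part. Of 21, all tested, 2 rose and none fell, where 0.598% of all genes rose and 0.414% fell. The median was 0.61, which was 0.51 against wild-type BAG replicate 1 and 1.03 against replicate 2. The carboxypeptidase gene egl-21 stood at 5949 and 7854 in the mutant against 2337 and 2451 in wild-type BAG, a change of 1.51 ± 0.27 (limma adjusted p = 0.0406). The amidation enzyme gene pgal-1 stood at 4351 and 4965 in the mutant against 1389 and 970.3 in wild-type BAG, a change of 2.00 ± 0.32 (limma adjusted p = 0.0292), though F21F3.6 on the opposite strand covers part of its exons and the level is uncertain. The convertase gene egl-3 stood at 21802 and 31346 in the mutant against 7889 and 7104 in wild-type BAG and narrowly missed the threshold, at 1.804 ± 0.35 (limma adjusted p = 0.0514). The release factor genes unc-31 and pkc-1, given as members at the other end of the list and named after their values were seen, stood at -0.18 ± 0.24 and 0.05 ± 0.25 (limma adjusted p = 0.758 and 0.945).

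Among receptors of neuropeptides a single gene rose. Of 100 genes 83 were tested, 6 of them only through the mutant libraries, where they are high. With these 6 included, the median was 1.01. Of the 83, 64 lay above both wild-type BAG libraries against 2 below, where the shares over all genes were 27.4% and 24.3%. Over all 99 members with a read, 71 lay above and 3 below. The one that rose was npr-15, at 3201 and 3721 in the mutant against 1259 and 995.4 in wild-type BAG, a change of 1.62 ± 0.26 (limma adjusted p = 0.0292). Globins, oxygen-binding proteins of which several act in oxygen sensing neurons, had counts of the same order. Of 34 genes 32 were tested, 1 of them only through the mutant libraries. The median was 1.09, with 0 past the threshold and 25 above both wild-type BAG libraries. Of the globin genes 19 had an unadjusted p under 0.05, as did 17.1% of all genes. By contrast genes of the synaptic vesicle cycle (36 tested) and pan-neuronal genes (21 tested) had medians of 0.18 and 0.23, with 0 rises among the synaptic genes and 1 among the pan-neuronal genes, again egl-21.

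**Figure D4:**
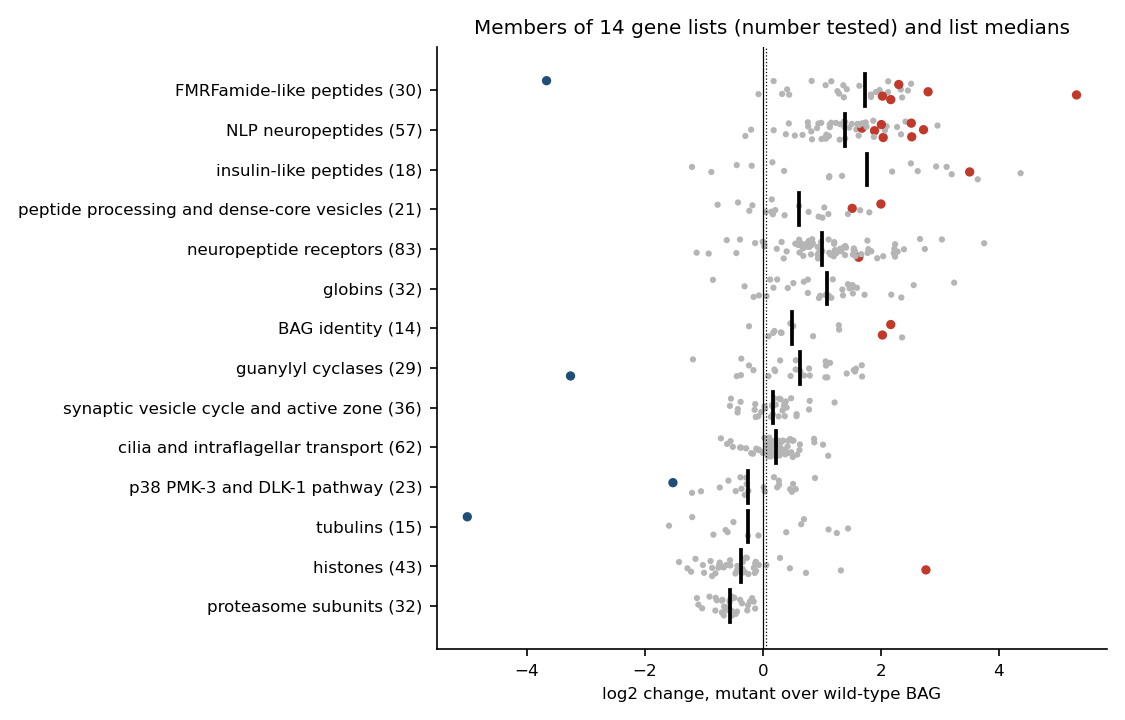
Log2 change of mutant over wild-type BAG for each tested member (points) of 14 gene lists, with the number tested in brackets and the list's median as a black bar. Members that rose are red and those that fell blue, and the dotted line is the median of all genes, 0.0482. The 3 peptide lists have medians of 1.396 to 1.77, and the proteasome list has a median of -0.57. The peptide medians include 6 insulin-like, 4 NLP and 1 flp gene tested only through the mutant libraries. They also include 1 insulin-like gene tested only through the wild type. Without these members the 3 lists together had a median of 1.37.

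Markers of other neurons moved with the peptide genes in part, and their part in the peptide values was not tested. For 6 of 8 GABA neuron markers, 5 of 12 cholinergic markers, 8 of 12 monoamine markers, 9 of 11 tested touch neuron markers and 11 of 22 tested markers of other amphid neurons, both mutant libraries lay above both wild-type BAG libraries, against 27.4% of all genes. The summed level of GABA markers was 2439 and 1684 in the mutant against 1251 and 863 in wild-type BAG, that of cholinergic markers 1974 and 1402 in the mutant against 1143 and 876 in wild-type BAG. That of other amphid markers was 6643 and 7948 in the mutant against 4681 and 4111 in wild-type BAG, that of monoamine markers 2757 and 2488 against 2711 and 1886, and that of touch neuron markers 8266 and 9054 against 7968 and 6680. Non-BAG sums were 1185 and 1144 for GABA, 1223 and 892 for cholinergic, and 2150 and 2271 for amphid markers. For monoamine markers they were 4405 and 2339, and for touch neuron markers 3373 and 2241. Single genes made up much of the monoamine and touch sums. The monoamine marker egl-46 stood at 1712 and 1479 in the mutant against 1988 and 1188 in wild-type BAG. Of the touch markers, mec-2 stood at 3472 and 4473 against 2599 and 2710, and mec-8 at 2712 and 2771 against 4020 and 2857. In non-BAG cells mec-2 stood at 233 and 163 and mec-8 at 1660 and 928. None of the GABA, cholinergic, monoamine or touch markers passed the threshold, with medians of 1.00, 0.56, 0.48 and 0.65. The GABA enzyme gene unc-25 stood at 628 and 343 in the mutant against 254 and 149.4 in wild-type BAG, and the acetylcholine transporter gene unc-17 at 375 and 312 against 121.5 and 132.2. Of the amphid markers, 2 rose, daf-7 and flp-6, which is also counted among the flp genes. The GABA list likewise holds a peptide gene, flp-11. Of the 30 amphid markers 2 had no read in the 4 BAG libraries, and each marker in the other 4 lists had reads.

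The transforming growth factor beta ligand gene daf-7, which in worms is made in sensory neurons and controls dauer entry, rose. It stood at 633 and 975.2 in the mutant, against 99.6 and 120.7 in wild-type BAG and 109.4 and 144.4 in non-BAG cells. Mutant values lay above all 4 wild-type values, and the change was 2.83 ± 0.33 (limma adjusted p = 0.00993). Of 22 genes in its pathway 21 were tested and no other passed. The list's median was 0.31.

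Of the genes in the cascade of PMK-3 itself, 1 changed. Of 24 listed genes 23 were tested, with 0 rises, 1 fall and a median of -0.25. The fall was sek-3, the MAP kinase kinase gene, at 290 and 305 in the mutant against 979 and 751 in wild-type BAG, a change of -1.53 ± 0.26 (limma adjusted p = 0.035). Its non-BAG values, 548 and 576, lay between the mutant and the wild-type BAG values. Kinase genes dlk-1 and mkk-4 stood at 0.24 ± 0.25 and 0.46 ± 0.29, the transcription factor gene cebp-1 at 0.01 ± 0.27, and the ubiquitin ligase gene rpm-1, whose product restrains DLK-1, at 0.19 ± 0.30 (limma adjusted p = 0.683, 0.462, 0.987 and 0.803), these 4 named after their values were seen. The p38 phosphatase gene vhp-1 stood at 0.27 ± 0.28 (limma adjusted p = 0.682). The stress factor gene skn-1 stood at 2247 and 3005 in the mutant against 5159 and 5609 in wild-type BAG and did not pass (-1.05 ± 0.27, limma adjusted p = 0.0996). Of the Toll-like receptor pathway all 6 genes were tested and none passed, with tol-1 at 0.10 ± 0.29 and the kinase gene mom-4 at -0.81 ± 0.27 (limma adjusted p = 0.904 and 0.177), and of 20 tested genes in the JNK and ERK pathways none passed.

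The tubulin gene tbb-6, whose reporters respond to PMK-3, fell. It stood at 29.1 and 13.8 in the mutant, against 473 and 977 in wild-type BAG and 214.4 and 515 in non-BAG cells. The lowest wild-type library was several times above the highest mutant library. The change was -5.01 ± 0.53 (limma adjusted p = 0.00911), and the wild-type BAG mean was 33.8 times the mutant mean. That ratio was 52.6 without mutant replicate 1 and 22.1 without wild-type BAG replicate 2. Of 15 tested tubulin genes tbb-6 was the single one to pass, with tbb-2 at -0.84 ± 0.31 (limma adjusted p = 0.215). The list of mitochondrial unfolded protein response genes also holds tbb-6. Of its 17 tested genes 2 fell, tbb-6 among them, and none rose, where 0.414% of all genes fell and 0.598% rose. The other was phf-33, at 69 and 31 in the mutant against 355 and 447 in wild-type BAG, a change of -3.08 ± 0.49 (limma adjusted p = 0.0292). The list's median was 0.14, and it ran between -0.14 and 0.23 over the alternatives. Of the 17, 6 lay above both wild-type BAG libraries and 4 below, where the shares over all genes were 27.4% and 24.3%.

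Several transcripts were all but absent from the mutant. Both mutant libraries held 0 reads of 4 genes that fell, against 83.1 and 117.1 in wild-type BAG for Y7A5A.3, 60.3 and 73.3 for B0205.14, 36.5 and 71.1 for Y7A5A.5, and 49.3 and 75.4 for the noncoding RNA gene F49E10.9. Counting 3 reads over both mutant libraries as the limit that 0 reads allow, they were at least 61.2-fold, 40.5-fold, 33.5-fold and 38.3-fold lower in the mutant, and these limits cover counting error only. Without mutant replicate 2 the limits were at least 31.6-fold, 20.9-fold, 17.3-fold and 19.8-fold, and without mutant replicate 1 they were lower still, at least 29.6-fold for Y7A5A.3, 19.6-fold for B0205.14 and 18.5-fold for F49E10.9. Without wild-type BAG replicate 2 that of Y7A5A.5 was at least 21.9-fold. Those of F49E10.9 and B0205.14 are uncertain, since F49E10.2, a more abundant gene that also fell, and srz-85 cover parts of their exons on the opposite strand. The functions of these genes are not known from the sources used here. Of genes at 10 or less in both mutant libraries and at 50 or more in both wild-type BAG libraries there were 6, and of the reverse kind 10.

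The transporter gene pgp-9, a P-glycoprotein of the ABC family that moves compounds across membranes, stood at 4.31 and 9.2 in the mutant against 272.3 and 248.5 in wild-type BAG. Its non-BAG values were 33.6 and 37.2, above both mutant values. The change was -5.15 ± 0.47 (limma adjusted p = 0.00826), and it was called without wild-type BAG replicate 1 and without mutant replicate 2 as well. The cytochrome P450 gene cyp-14A3 stood at 3.23 and 1.15 in the mutant against 68.5 and 59.6 in wild-type BAG (-4.43 ± 0.68, limma adjusted p = 0.0275). For the P450 gene cyp-43A1, named after its values were seen, 1 mutant read stood against 78 wild-type BAG reads. Scaled by the library factors, the ratio was 56.4, with an exact 95% counting interval of 9.82 to 2250. The ratio was 27.3 without mutant replicate 1 and at least 9.7 without mutant replicate 2, and C41G11.1 on the opposite strand makes the level uncertain.

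Other large falls were of B0205.13 (-5.41), the ubiquitin conjugating enzyme gene ubc-23 (-3.93), C52A10.1 (now cest-32, -3.74), F32E10.9 (-3.68), F09F7.5 (-3.68), F53B2.8 (-3.57) and sdz-35 (-3.32). For ubc-23 the values were 12.9 and 8.05 in the mutant against 159.9 and 180.3 in wild-type BAG. For F53B2.8 they were 97 and 180.5 against 1354 and 1863. Mutant and wild-type BAG libraries stood apart by several fold in each of these 7. Genes on the opposite strand cover parts of the exons of C52A10.1 (Y49G5B.1) and of B0205.14 (srz-85, a chemoreceptor gene that also fell), so these levels are uncertain. Of the 54 genes that fell, 42 had both mutant values below all 4 wild-type libraries, where the share over all genes tested was 15.1%. The 54 already lay below both wild-type BAG libraries, so that share is not a like comparison. Of the 3164 tested genes below both wild-type BAG libraries, 1965 lay below all 4 wild-type libraries.

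Some falls sat side by side in the genome. In the Ensembl annotation of the WBcel235 assembly, used only for names and neighbours, 20 of the 132 genes formed 9 runs of adjacent tested genes that changed in the same direction, 6 runs of falls with 14 genes and 3 runs of rises with 6. In 7 runs the members shared no exons. The runs of falls were K09F6.9, mir-5548 and K09F6.10, then Y7A5A.3 and Y7A5A.5, ZK1055.6 and ZK1055.7, cyp-14A3 and phf-33, and, with overlapping exons, F49E10.9 and F49E10.2 and a run of srz-85, B0205.14 and B0205.13. The runs of rises were B0507.10 and B0507.8, ZK971.1 and nep-26, and hil-1 and F02D8.5. How often neighbours would move together in such libraries was not tested. The genes named in these runs beyond the rule were chosen after their values were seen.

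The soluble guanylyl cyclase gene gcy-37, whose product acts in oxygen sensing in the URX, AQR and PQR neurons, fell as well. It stood at 61.4 and 96.6 in the mutant, against 826 and 677 in wild-type BAG and 78 and 96.1 in non-BAG cells. Its mutant values overlapped those of non-BAG cells, as those of flp-25 did. The change of gcy-37 was -3.26 ± 0.33 (limma adjusted p = 0.00911). It was the single one of 29 tested guanylyl cyclase genes to pass, and the list's median was 0.63. Summed markers of URX, AQR and PQR neurons, gcy-37 included, were 1432 and 1132 in the mutant against 1739 and 1482 in wild-type BAG. Without gcy-37 the sums of the other 9 markers were 1370.0 and 1035 in the mutant against 913 and 805 in wild-type BAG, so the mutant was higher. Both mutant libraries lay above both wild-type BAG libraries for 6 of the 10, against 27.4% of all genes. In the list of cyclic nucleotide channels, phosphodiesterases and kinases, 1 of 13 tested genes rose, the cGMP-dependent kinase gene pkg-2, at 538 and 793 in the mutant against 223.8 and 201.8 in wild-type BAG (1.62 ± 0.29, limma adjusted p = 0.0406).

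Of the BAG identity genes, those not yet described did not pass the test. Of 14, all tested, 2 rose (flp-10 and flp-19), none fell, and the median was 0.49. Both mutant libraries lay above both wild-type BAG libraries for 9 of the 14 and below them for 1, where the shares over all genes were 27.4% and 24.3%. Of the transcription factors that act in BAG fate, ets-5 stood at 0.32 ± 0.31, egl-13 at 0.17 ± 0.36 and ceh-37 at 0.30 ± 0.35. The channel genes tax-2 and tax-4 stood at 0.85 ± 0.55 and 0.46 ± 0.32, the globin gene glb-5 at 0.52 ± 0.37, gcy-33 at -0.24 ± 0.32 and the peptide gene flp-13 at 1.29 ± 0.38. The glutamate transporter gene eat-4 stood at 946.5 and 951 in the mutant against 309.7 and 487 in wild-type BAG (1.29 ± 0.31, limma adjusted p = 0.0796). None of these 9 passed (limma adjusted p between 0.0796 and 0.853), although 5 of the 14 list members had an unadjusted p under 0.05. The levels of ets-5 and eat-4 are uncertain, since they share exon sequence with cal-5 and ZK512.2.

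The largest rise of all was of B0294.1, a gene whose function is not known from the sources used here. B0294.1 stood at 256.6 and 870.5 in the mutant against 2.74 and 12.21 in wild-type BAG, a change of 6.07 ± 1.00 (limma adjusted p = 0.0292). The lysozyme gene lys-1 stood at 126.1 and 198.9 in the mutant against 0.914 and 7.9 in wild-type BAG, a change of 5.27 ± 0.82 (limma adjusted p = 0.0292). The invertebrate lysozyme gene ilys-5 stood at 30.2 and 112.7 in the mutant against 0 and 1.44 in wild-type BAG. Here 126 mutant reads stood against 2 wild-type reads. Scaled by the library factors, the ratio was 87.2, with an exact 95% counting interval of 23.6 to 728. It was 140.1 when mutant replicate 1 was left out and 37.5 when mutant replicate 2 was. With only the second wild-type BAG library it was 48.8, and with only the first it was at least 25.6. Lysozymes break bacterial cell walls and serve in innate immunity, and these were the 2 rises among 20 tested genes of that list. Both were among the 3 members tested only through the mutant libraries, where they are high, and none of the other 17 rose. The median of the list was 0.12, and it ran between -0.01 and 0.37 over the alternatives.

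Further large rises were those of W05F2.7 (4.77), T23B3.6 (4.37), H35N09.1 (4.14), F59F4.1 (now acox-1.6, 3.75), the glutathione S-transferase gene gst-36 (3.74), ZK971.1 (3.60), F41B4.2 (3.59), Y2H9A.4 (3.55) and tag-89 (3.45). For B0507.8 93 mutant reads stood against 2 wild-type BAG reads. Scaled by the library factors, the ratio was 64.3, with an exact 95% counting interval of 17.3 to 539. With only the second wild-type BAG library it was at least 24, and with only the first it was 28.3. W05F2.7 stood at 196.2 and 302.4 in the mutant against 7.31 and 8.62 in wild-type BAG. F41B4.2 stood at 420.4 and 649 against 51.2 and 35.2. Of the 78 genes that rose, 77 had both mutant values above all 4 wild-type libraries, where the share over all genes tested was 19.6%. The 78 already lay above both wild-type BAG libraries, so that share is not a like comparison. Of the 3571 tested genes above both wild-type BAG libraries, 2558 lay above all 4 wild-type libraries.

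**Figure D5:**
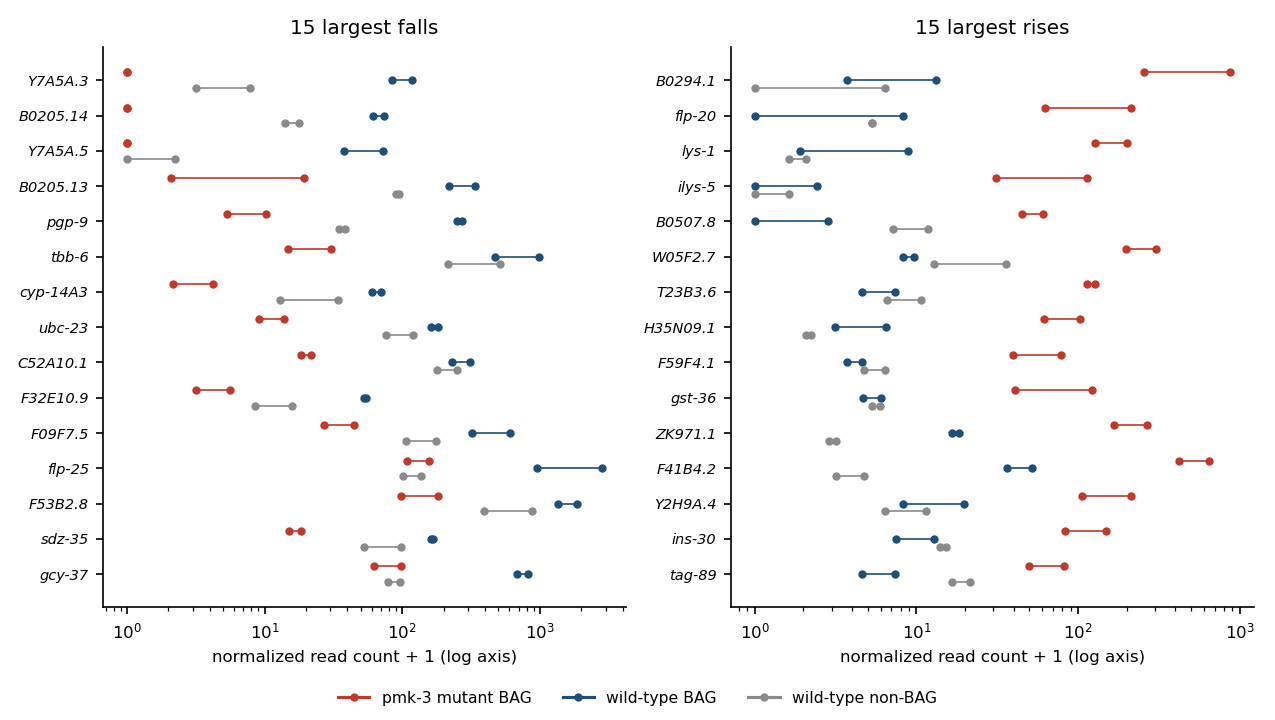
Normalized read count plus 1, on a log axis, of the 15 largest falls (left) and 15 largest rises (right) in mutant BAG (red, top), wild-type BAG (blue, middle) and wild-type non-BAG cells (grey, bottom). Each line joins the 2 libraries of a group. Mutant and wild-type BAG lines do not overlap for any of the 30 genes, while mutant and non-BAG lines overlap for gcy-37 and flp-25 and meet at 0 for Y7A5A.5.

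A few channel and nuclear receptor genes passed, against 0.598% of all genes that rose and 0.414% that fell. The chemoreceptor counts lay near these shares. Of 65 tested potassium and calcium channel genes 2 rose: kcnl-1, a calcium-activated potassium channel gene, at 1441 and 2122 in the mutant against 458 and 540.1 in wild-type BAG (1.81 ± 0.33, limma adjusted p = 0.0412), and the inward rectifier gene irk-3 (2.40 ± 0.42, limma adjusted p = 0.0406). Of 165 tested nuclear hormone receptor genes, a large family of transcription factors in worms, nhr-36, nhr-277 and nhr-88 rose (2.81 ± 0.47, 2.69 ± 0.43 and 1.43 ± 0.27) and nhr-56 fell (-2.44 ± 0.42). Of 121 tested chemoreceptor genes srv-6 rose (2.64 ± 0.43) and srz-85 fell (-2.99 ± 0.49). Among genes outside the rule, named after their values were seen, the fatty acid desaturase gene fat-1 stood at 385 and 280.6 in the mutant against 86.8 and 64.6 in wild-type BAG, and the leucine-rich repeat gene lron-12 at 1036 and 1287 against 136.1 and 127.8.

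The heavy chain gene of cytoplasmic dynein, dhc-1, which carries cargo toward microtubule minus ends, stood at 4284 and 4676 in the mutant against 13526 and 12911 in wild-type BAG. Mutant values lay below all 4 wild-type values, and the change was -1.56 ± 0.30 (limma adjusted p = 0.0484). It was the single one of 41 tested microtubule regulators and motors to pass, with a list median of -0.20. Named after their values were seen, cku-70 and cku-80, which encode the 2 partners of the Ku complex that binds broken DNA ends, both fell, at 143.4 and 156.4 in the mutant against 489 and 581 in wild-type BAG for cku-70, and 23.7 and 12.65 against 128.8 and 134.3 for cku-80. The changes were -1.82 ± 0.29 for cku-70 and -2.85 ± 0.42 for cku-80 (limma adjusted p = 0.0292 and 0.0275). The autophagy gene bec-1 (-1.45 ± 0.27) and the double-stranded RNA transport gene sid-5 (-2.08 ± 0.32), also named after their values were seen, fell as well (limma adjusted p = 0.0465 and 0.0292).

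Genes of the proteasome, which degrades proteins tagged with ubiquitin, passed the test in 0 cases. Of 33 subunit genes 32 were tested, and 24 had both mutant libraries below both wild-type BAG libraries and 0 had them above, where the share below over all genes was 24.3%. The median was -0.57, and it was -0.47 against wild-type BAG replicate 1 and -0.66 against replicate 2. An unadjusted p under 0.05 was reached by 10. The summed level was 7029 and 8852 in the mutant, against 11118 and 12530 in wild-type BAG and 7208 and 7207 in non-BAG cells. Examples were rpn-1 at -0.52 ± 0.28 and rpn-3 at -0.78 ± 0.28 (limma adjusted p = 0.383 and 0.195).

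Histone genes had a median of -0.37 over 43 tested, with 24 below and 5 above both wild-type BAG libraries (24.3% and 27.4% over all genes), and the 1 that passed, the linker histone gene hil-1, rose (2.76 ± 0.46, limma adjusted p = 0.0305). Reads of near-identical histone copies cannot be assigned with certainty. Germline markers had 10 of 25 tested members below and 0 above, with summed levels of 2387 and 2689 in the mutant against 3439 and 4854 in wild-type BAG. Cytosolic ribosomal protein genes, 80 of them tested, had a median of 0.21 and 0 past the threshold, with no unadjusted p under 0.05, and the median was -0.04 against wild-type BAG replicate 2.

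Markers of tissues other than neurons did not pass the test. Summed levels of body wall muscle markers were 73027 and 77349 in the mutant against 72851 and 63742 in wild-type BAG, and those of pharynx markers 8612 and 9006 against 8117 and 4553. For hypodermis and seam they were 10399 and 8482 against 6553 and 15822, for intestine 801 and 684 against 773 and 689, and for glia 5581 and 5721 against 5461 and 3993. Members of these 5 lists and of the germline and the coelomocyte and excretory lists passed in 0 cases. The muscle myosin gene unc-54 was present at 41712 and 46587 in the mutant and 36217 and 33253 in wild-type BAG. In non-BAG cells it stood lower, at 7237 and 6443. This gene made up a large part of the body wall muscle sums in the BAG libraries. It made up a small part of those in non-BAG cells, which were 95927 and 70985. The BAG sums therefore do not give the level of the muscle markers as a group. Sums without unc-54 were not taken, and its part in any other result was not tested.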

How the data were processed

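RNA of sorted cells was sequenced in 6 libraries, 2 in each of 3 groups. The authors deposited a signal per gene, a read count divided by a library factor. STAR, HTSeq and DESeq2 are named per the submitters' processing notes, with no versions, roles or genome build. Each deposited value was a whole multiple, within 0.01 read, of what 1 read was worth in its library (100% of values), so whole reads were recovered. Library totals ran between 6181113 and 8596169 reads, and 1 read was worth 0.62 to 1.15.

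Genes at 10 or more in at least 2 of the 4 BAG libraries were tested on log2(value + 1) with limma 3.58.1 in R 4.3.3, with a mean-variance trend and 3 residual degrees of freedom. The pseudocount understates changes of low genes. Non-BAG libraries entered the fit only for its estimate of spread, and their replicates lay farther apart than those of either BAG group. They deviated together with the same-numbered wild-type BAG libraries (correlation 0.416), which the main fit, having no block, ignored. With the BAG libraries alone 599 genes were called, and with a replicate block 732. Tests were two-sided. An exact permutation test of 2 against 2 cannot go below 0.333, so none was run. The pipeline was tested on simulated data. Alternatives were pseudocounts of 0.5 and 8, other filters, TMM and quantile scaling, a replicate block, no trend, the BAG libraries alone, edgeR 4.0.16 and DESeq2 1.42.0 on recovered reads, and leaving out each library.

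The genes named were pmk-3 and its operon, ins-1, tbb-6, BAG identity genes, the 15 largest rises and falls among protein-coding genes with a mean of at least 50, 2 to 4 members per list, the largest differences between wild-type BAG libraries, and genes near 0 in a single group. A member of a list was called by the test over all genes. The lists and the comparison were chosen with earlier results of these data known. A reference table of gene names matched 43655 of the 47063 gene identifiers. Exons shared with another gene at 10% or more of its level affected 18 of the 132 called genes. A planned search of promoters for motifs was not run.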

Additional observations from a re-analysis of the deposited data

How the results depend on the processing

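Of the 132 calls, 117 to 132 were shared with pseudocounts of 0.5 and 8, TMM and quantile scaling, edgeR and DESeq2. The number shared was 89 with no filter and 114 with a mean of at least 50. It was 77 over all 10 alternatives other than no trend and leaving out 1 library. The number of genes called was 290 with a pseudocount of 8, 599 with the 4 BAG libraries alone, 208 by edgeR and 704 by DESeq2, all by adjusted p. With no mean-variance trend 3 were called (B0205.14, Y7A5A.3 and pgp-9). Leaving out 1 library gave between 0 and 485 calls. With a replicate block 732 genes were called, and pmk-3 passed at -1.202 (limma adjusted p = 0.0266). Replicate numbers are shared between groups but did not pair the mutant with the wild-type libraries: same-numbered deviations correlated at 0.0778 between mutant and wild-type BAG, at 0.0109 between mutant BAG and non-BAG, while wild-type BAG and non-BAG deviated together, at 0.416. TMM and quantile scaling gave 68 and 102 rises and 62 and 78 falls, against 78 and 54 as deposited.

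The change of pmk-3 passed at -1.202 with the BAG libraries alone (limma adjusted p = 0.0298) and at -1.185 by DESeq2 (adjusted p = 0.0166), and ran between -1.301 and -1.103 without 1 library. Of 54 list medians, 12 changed sign under at least 1 alternative. Where calls were lost or gained, the cause was not tested. Genes near 10 reads are limited by depth.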
